A study of Rattus norvegicus with 24 samples.

Results

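The comparison described here set the kidneys of 2 congenic rat strains against each other, the ET3x2 strain against the ET3x1 strain, across every probe set of a pair of Affymetrix arrays. Its members were the 16 arrays, of 24 in the series, that carried the 4 ET3x2 and 4 ET3x1 pools, and these 8 pools held RNA of 24 of the 32 rats. All 31142 probe sets that were not array controls were used, 15866 on the RAE230A array and 15276 on the RAE230B array. Both strains carry chromosome segments of the Dahl salt-resistant R rat in the genome of the Dahl salt-sensitive SS/Jr rat (S), and S itself was the remaining strain of the series. The limits of the segments are not given in the sources used here. All rats were males that ate 0.4% NaCl until 39 to 41 days of age and then 2% NaCl for 28 days, so that every group, S included, was on raised salt when the kidneys were taken at 67 to 69 days. Total RNA of the left kidney was isolated from each rat, and equal amounts from 3 rats made 1 congenic pool. The pools are named by letter, E to H for ET3x1 and I to L for ET3x2. The S pools A to D held 2 rats each and did not enter the comparison; their values are given in places as a description.

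Dahl S rats raise their blood pressure on a salt-rich diet, whereas R rats do not, and a congenic strain keeps a short R segment in the S genome so that the effect of that segment can be studied. The strain names point to endothelin-3, a vasoactive peptide whose gene Edn3 lies on rat chromosome 3. Kidney cells reclaim filtered salt through transporters and channels along the nephron, under control of angiotensin, aldosterone and endothelins. A whole-kidney pool mixes all of these cells with vessels, glomeruli and blood cells, and in such bulk RNA fewer cells of a type and less RNA per cell cannot be told apart. Each array probe set reads a short stretch, usually near the 3′ end, of the transcripts of 1 gene, so that 2 probe sets of a gene can report different transcript ends.

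Values are log2 signals as deposited, and a difference is the mean of the 4 ET3x2 pools minus the mean of the 4 ET3x1 pools. The arrays carried kidney transcripts at high signal, and the thick limb protein Umod measured 14.39 ± 0.04 (SD, n = 4) in ET3x1 and 14.37 ± 0.05 (n = 4) in ET3x2. The number of arrays limits the precision; a probe set was tested when its mean over the 8 pools reached the 30th percentile of its chip (7.52 on RAE230A, 6.86 on RAE230B), which left 21799 probe sets of 11229 named genes tested and 9343 untested. On the first principal component, holding 40.3% (RAE230A) and 42.24% (RAE230B) of the variance, pool G lay at one end and pool J at the other. Pool F of ET3x1 (0.19 on RAE230A and 2.57 on RAE230B) lay nearer to the end of pool J than pool L of ET3x2 (−0.38 and 0.45). The component therefore did not fully separate the groups on either array. The 5′ minus 3′ signal of the actin control, a measure of how complete the RNA is, ran from −2.02 to −1.66 in ET3x1 and from −1.83 to −1.14 in ET3x2 on RAE230A, with pool J the highest. That measure moved with the groups in part, and with it as a covariate of the fit 255 lower and 9 higher calls were made.

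Most probe sets called between the kidneys of ET3x2 and ET3x1 were lower in ET3x2. At an adjusted p under 0.05 (limma, Benjamini-Hochberg within each chip), 366 probe sets were lower in ET3x2 and 25 were higher, which is 1.68% and 0.115% of those tested, 1.79% together. The RAE230A array gave 142 lower (1.28%) and 20 higher (0.18%), and the RAE230B array, which holds more of the less studied transcripts, gave 224 lower (2.09%) and 5 higher (0.0468%). Lower calls made up 93.6% of all calls, although 60.6% of the genes had a positive difference and the median difference over all genes was 0.03. The 366 lower probe sets had a median difference of −0.60, reached −2.30, and 58 of them differed by at least 1 log2 unit; the 25 higher ones lay between 0.23 and 0.71 with a median of 0.42. Pools of the groups did not overlap for 361 of the 366 lower and for all 25 higher calls; over all tested probe sets, 4.19% were apart in the lower direction and 4.96% in the higher one. The number of calls depended on single pools. Without pool K of ET3x2 there were 157 lower and 2 higher calls, without pool E of ET3x1 159 and 4, and without pool I of ET3x2 226 and 3. Without pool F of ET3x1 there were 399 and 265, without pool G 292 and 7, without pool H 324 and 16, and without pool L 414 and 40. Weighting each array by its estimated quality gave 854 and 549, in which 60.9% of calls were lower.

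**Figure D1:**
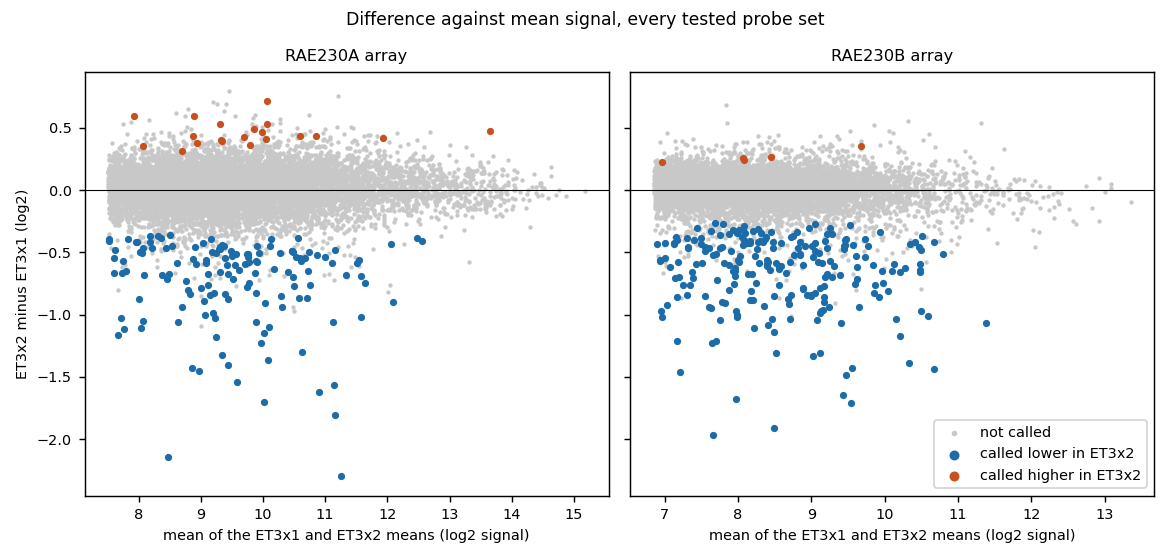
Difference ET3x2 minus ET3x1 (log2) against the mean log2 signal for every tested probe set of the RAE230A and RAE230B arrays, with the 366 probe sets called lower in blue and the 25 called higher in orange. Called points fall mostly below 0 at all signal levels and extend to −2.30, whereas the highest called point is at 0.71.

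Mgll, the lipase that breaks down the endocannabinoid 2-arachidonoylglycerol, measured 12.03, 12.16, 12.32 and 11.73 in pools E to H and 10.57, 10.64, 9.88 and 9.94 in pools I to L at probe set 1370831_at. Every ET3x2 pool lay at least 1 log2 unit below every ET3x1 pool, and the mean was 3.48-fold higher in ET3x1 (difference −1.80 ± 0.18 SE, adjusted p = 0.000419). In the S pools the same probe set read 10.06 to 11.11.
Ubxn4, an endoplasmic reticulum protein of the degradation pathway for misfolded proteins, measured 9.41, 9.19, 9.74 and 9.44 in ET3x1 against 7.64, 8.33, 7.06 and 7.11 in ET3x2 at 1381542_at. The groups stayed apart although pool J stood above the other ET3x2 pools, and the mean was 3.76-fold higher in ET3x1 (−1.91 ± 0.25 SE, adjusted p = 0.00383).
Entpd5, a nucleoside diphosphatase of the endoplasmic reticulum, measured 11.42, 11.51, 11.38 and 11.24 against 10.00, 10.43, 9.67 and 9.69 at 1382434_at. It was 2.71-fold higher in ET3x1 (adjusted p = 0.00111), and the S pools at 10.70 to 11.28 lay above all ET3x2 pools.
Wdfy1, an early endosome protein that binds phosphatidylinositol 3-phosphate, measured 10.15, 9.86, 10.49 and 10.07 against 8.82, 8.78, 8.62 and 8.73. Its ET3x2 pools were close together (SD 0.09, n = 4) and 2.65-fold below ET3x1 (adjusted p = 8.86e-05).
For Tsc22d4, a leucine zipper transcription regulator, pools E to H read 10.92, 10.45, 11.26 and 10.42 and pools I to L read 9.59, 9.38, 8.90 and 9.71. The groups did not overlap, and the mean was 2.58-fold higher in ET3x1 at 1375958_at (adjusted p = 0.00505), but 1371550_at and 1382315_at differed by 0.09 and 0.02 and were not called.
The called probe sets of these 5 genes held their calls with each pool left out and under every other setting tried.

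**Figure D2:**
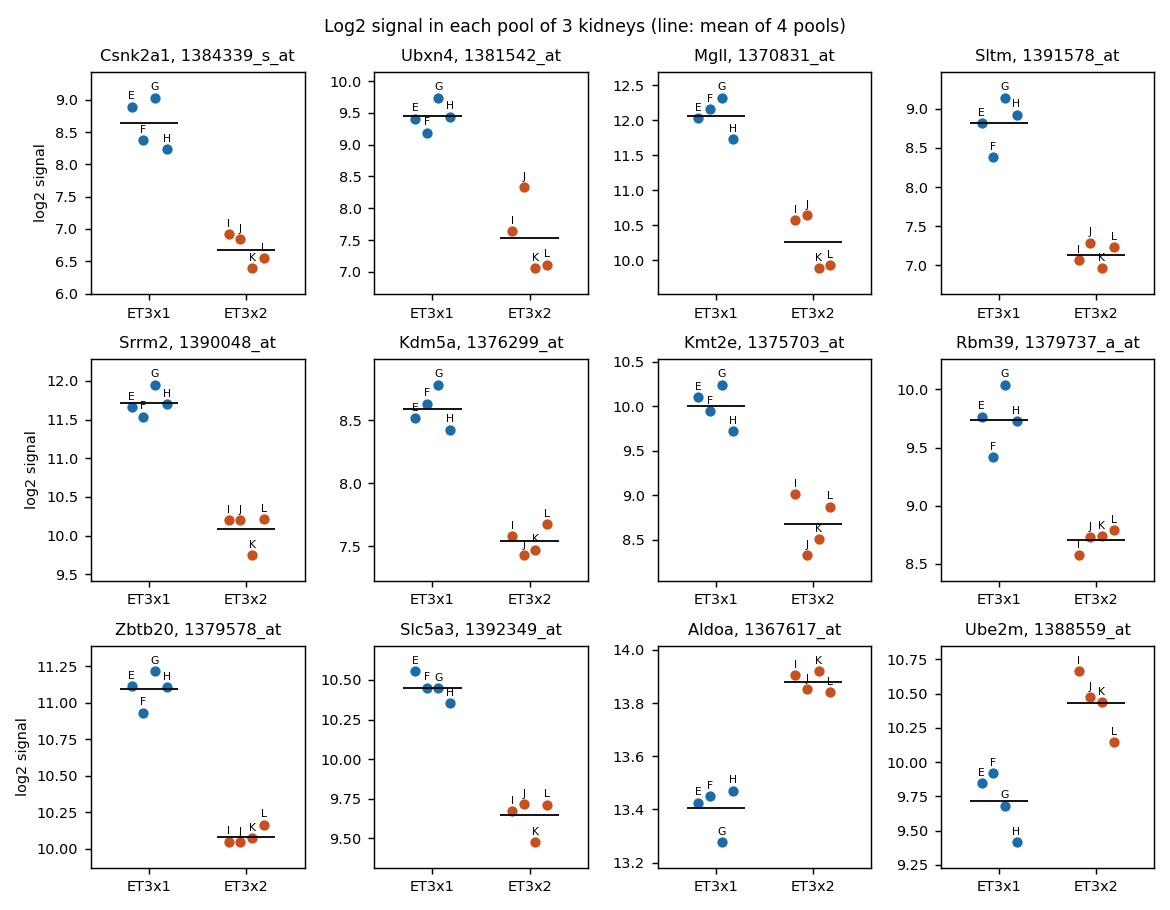
Log2 signal (vertical axes, scaled to each probe set) in each pool of 12 named probe sets, with ET3x1 pools E to H in blue, ET3x2 pools I to L in orange and lines at the means of 4 pools. The groups are apart in every panel, lower in ET3x2 for the first 10 and higher for Aldoa and Ube2m.

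The probe set with the largest difference of a named gene, 1384339_s_at of the casein kinase 2 catalytic subunit Csnk2a1, measured 8.90, 8.37, 9.03 and 8.24 in ET3x1 and 6.92, 6.84, 6.39 and 6.55 in ET3x2 (difference −1.96 ± 0.18 SE, adjusted p = 0.000486). The groups were far apart, but the ET3x2 mean of 6.67 lay below the level used to leave out dim probe sets, so that the size of the change rests on a background that is not known here and no fold is given. The suffix of its name marks a probe set that can match more than 1 transcript. A second probe set of Csnk2a1, 1392650_at, was lower by 0.62 on the log2 scale (adjusted p = 0.00743), and the other two, 1375636_at and 1376616_at, differed by −0.16 and 0.01 and were not called.
Hsp90ab1, a cytosolic chaperone, showed the widest spread among the leading genes. Its probe set 1375335_at measured 11.98, 11.96, 12.30 and 11.44 in ET3x1 and 10.42, 11.51, 9.65 and 9.85 in ET3x2, and pool J overlapped the ET3x1 pools. The call (−1.56 ± 0.32 SE, adjusted p = 0.0323) was lost without pool E (0.126), G (0.111), I (0.0944), K (0.129) or L (0.0549) and with all 12 pools in one fit (0.205), and its second probe set differed by −0.05.

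Genes of pre-mRNA splicing were among the called ones, and the called members of the splicing factor list were lower in ET3x2. Of 51 splicing factors listed, 45 were tested; 36 had a negative difference, and the median over the list was −0.11 against 0.03 over all genes. With 1 probe set per gene, the brightest, 2 were called lower (4.44%), where 1.09% of all genes were. With any probe set of a gene, 10 were (22.2%), where 2.09% of all genes were. None was called higher; over all genes 0.16% were by the brightest probe set and 0.196% by any. The list's mean deviation from the 8-pool average ran from 0.02 to 0.15 in ET3x1 pools and from −0.18 to 0.01 in ET3x2 pools, so its groups were apart by a small margin. This list and those below were chosen with earlier results of these data known. Counts over any probe set were added after seeing the data. The shares of lists are therefore a description and not a test.
Srrm2, a large scaffold protein of nuclear speckles, measured 11.66, 11.54, 11.95 and 11.70 in ET3x1 and 10.20, 10.20, 9.75 and 10.21 in ET3x2 at 1390048_at. All ET3x2 pools were lower, with K the lowest, and the mean was 3.08-fold higher in ET3x1 (−1.62 ± 0.12 SE, adjusted p = 7.59e-05); its other probe set differed by −0.19 and was not called.
Luc7l3, a protein of the U1 small nuclear ribonucleoprotein, measured 8.16, 8.08, 8.45 and 8.32 against 7.14, 7.05, 6.88 and 7.05 at 1382957_at. The difference was −1.23 ± 0.09 SE (adjusted p = 0.000142), its other probe sets differed by −0.41 and −0.46 without being called, and the S pools at 6.89 to 7.28 lay near the ET3x2 pools.
Rbm39, a splicing cofactor whose gene is on chromosome 3, measured 9.77, 9.41, 10.04 and 9.73 against 8.57, 8.73, 8.74 and 8.79 at 1379737_a_at. It was 2.04-fold higher in ET3x1 (adjusted p = 0.000984), and the S pools at 8.84 to 9.25 lay between the groups. Its second called probe set, 1381967_at, differed by −0.65 (adjusted p = 0.0205), a call lost without pool E (0.0903), G (0.0538), I (0.0773) or K (0.0685) and with the actin control as a covariate (0.0707); 1398993_at and 1399101_at differed by 0.06 and 0.00 and were not called.
The splicing kinase Clk1, which phosphorylates SR proteins, measured 10.98, 10.80, 10.72 and 10.85 against 9.86, 10.20, 10.17 and 10.33. It was 1.63-fold higher in ET3x1 (adjusted p = 0.00605), and no pool overlapped.
Of the other called members, the branch point recognition subunit Sf3b1 (−1.10, adjusted p = 0.00646), Rbm5 (−1.04, adjusted p = 0.00442), Srrm1 (−0.80, adjusted p = 0.00813) and Srsf11 (−0.61, adjusted p = 0.00892) kept their calls under every setting. Their other probe sets were uncalled, at −0.195 for Sf3b1, −0.259 for Rbm5, 0.012 and 0.119 for Srrm1 and −0.33 for Srsf11. Tra2b (−0.55) lost its call without pool E, and Pnn (−0.65), whose ET3x2 mean was below the filter level, lost it without pool E, H, I or K. Both also lost it with all 12 pools in one fit. A splicing gene that the list did not hold, Sf3b5, a small subunit of the same complex as Sf3b1, was among the 12 highest named genes, at 9.99, 9.88, 9.63 and 9.70 in ET3x1 and 10.41, 10.10, 10.47 and 10.33 in ET3x2. Its call (0.53 ± 0.11 SE, adjusted p = 0.0302) was lost without pool E (0.0529), G (0.1), H (0.0752), I (0.109) or K (0.135) and with all 12 pools in one fit (0.0649).

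Among 31 heterogeneous nuclear ribonucleoproteins and further RNA-binding proteins tested, 2 (6.45%) were called lower by any probe set, beside 2.09% of all genes. By the brightest probe set 1 was (3.23%, beside 1.09%), and the median difference was −0.04.
Sltm, a nuclear protein with a SAP domain, measured 8.81, 8.38, 9.14 and 8.93 in ET3x1 and 7.07, 7.29, 6.96 and 7.23 in ET3x2 at 1391578_at. All 4 ET3x2 pools lay more than 1 log2 unit below the lowest ET3x1 pool, and the mean was 3.20-fold higher in ET3x1 (−1.68 ± 0.14 SE, adjusted p = 0.00035); its other probe sets differed by −0.35 and −0.22 without a call.
Celf1, which regulates splicing and decay of messenger RNAs, was called at 2 of its 5 tested probe sets. At 1371900_at it measured 9.80, 9.85, 9.88 and 9.74 against 9.37, 9.28, 9.23 and 9.33, a 1.43-fold difference with an SD of 0.06 in each group (adjusted p = 0.00451); the S pools at 9.68 to 9.92 were level with ET3x1. The second, 1388704_at, lost its call without pool E (0.0903), G (0.0686) or K (0.0749) and with the actin covariate (0.0832); the uncalled ones ran from −0.12 to 0.08.
Of 25 RNA helicases, 4 (16%) were called lower by any probe set, beside 2.09% of all genes, and 2 (8.0%) by the brightest, beside 1.09%. Of the 4 calls, 3 depended on single pools. Dhx36, which unwinds G-quadruplexes, measured 8.57, 8.35, 8.11 and 8.28 against 7.75, 7.49, 7.29 and 7.77 (−0.75 ± 0.12 SE, adjusted p = 0.0105) and kept its call throughout, while its other probe sets differed by −0.04 and −0.01. Ddx6, a helicase of processing bodies, had the larger difference of −1.54 ± 0.25 SE, but its ET3x1 pools spread from 9.71 to 11.06 and the call (adjusted p = 0.0102) was lost without pool E (0.0573) or K (0.0555). Ddx24 (−0.54, adjusted p = 0.0302) and Ddx27 (−0.27, adjusted p = 0.031) lost theirs without any 1 of several pools, at 0.124 and 0.116 without pool K, and with the actin covariate (0.0919 and 0.0739); the second probe set of Ddx24 differed by 0.19 and that of Ddx27 by −0.14.

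Chromatin regulators also held lower calls. Of 91 tested, 57 had a negative difference and the median was −0.07. By the brightest probe set 7 were lower (7.69%, beside 1.09% of all genes) and by any probe set 12 were (13.2%, beside 2.09%). None was higher, beside 0.16% of all genes by the brightest probe set and 0.196% by any.
Kmt2e, a SET domain protein related to the trithorax family, was lower at 4 of its 5 probe sets. At 1375703_at it measured 10.10, 9.94, 10.24 and 9.72 in ET3x1 and 9.01, 8.32, 8.51 and 8.87 in ET3x2, 2.50-fold higher in ET3x1 (−1.33 ± 0.15 SE, adjusted p = 0.001). The other called ones differed by −0.67, −0.60 and −0.59; 1372274_at was lost without pool E (0.0816), G (0.0564) or K (0.0784) and with the actin covariate (0.0533), 1392564_at with all 12 pools in one fit (0.0963), and 1384125_at without E (0.053) or K (0.0584). The fifth, 1385422_at, differed by −0.18 with the groups apart and was not called (adjusted p = 0.135).
Kdm5a, a demethylase of histone H3 lysine 4, was lower at 2 of 4 probe sets. It measured 8.52, 8.63, 8.79 and 8.43 against 7.58, 7.43, 7.47 and 7.68 at 1376299_at, a 2.07-fold difference (adjusted p = 8.86e-05), and its second called probe set 1391689_at was 2.05-fold higher in ET3x1 (adjusted p = 0.00135). Its S pools at 7.46 to 7.77 lay at the ET3x2 level.
Nipbl, which loads cohesin onto DNA, measured 9.91, 9.17, 10.05 and 9.66 against 8.34, 8.65, 7.72 and 8.27 (2.74-fold higher in ET3x1, adjusted p = 0.0038). The groups were apart, while the S pools spread from 7.69 to 9.54 across both, and its second probe set differed by −0.33 without a call.
Ubn2, a subunit of a histone H3.3 chaperone complex, measured 9.05, 8.84, 9.22 and 9.13 against 8.20, 7.87, 7.74 and 7.88 (2.20-fold, adjusted p = 0.000486), with the S pools at 8.50 to 9.03 near ET3x1. Setd5, another SET domain protein, measured 8.73, 8.92, 8.67 and 8.96 against 7.84, 7.92, 7.93 and 7.85 (1.91-fold, adjusted p = 0.000179), with the S pools at 7.62 to 8.01 near ET3x2; its other three probe sets differed by −0.09 to −0.01 and were not called. The S pools stood on different sides for these genes.
The histone reader Mphosph8 (1395616_at, −1.21, adjusted p = 0.00325), the methyltransferases Kmt2c (−0.65, adjusted p = 0.00442) and Ash1l (1382862_at, −0.84, adjusted p = 0.0094) and the remodeller Chd1 (1382009_at, −0.99, adjusted p = 0.00138) also kept their calls under every setting. Second called probe sets of Mphosph8 (1376676_a_at, −0.39) and Ash1l (1382847_at, −0.70) lost theirs without pool E, I, K or L and with the actin covariate, among other settings. Uncalled probe sets differed by −0.21 for Mphosph8, −0.13 for Ash1l and −0.24 for Kmt2c. Smarca4, an ATPase of the SWI/SNF remodeller, was called at 1 of 3 probe sets (−1.11, ET3x2 mean below the filter level) and lost the call without pool E, G or K; its other probe sets differed by −0.02 and 0.19. Nsd3 and Arid5b were called at −0.45 and −0.42 and lost their calls under most settings. The other probe sets of Nsd3 differed by −0.315, 0.061 and 0.07 and were not called.

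Among 196 zinc finger transcription factors tested, 95 differences were positive and 101 negative with a median of 0.00 (−0.003 before rounding). By the brightest probe set 5 (2.55%) were lower, beside 1.09% of all genes, and by any 9 (4.59%) were, beside 2.09%. None was higher, beside 0.16% of all genes by the brightest probe set and 0.196% by any.
Trps1, a GATA-type repressor, was lower at both of its probe sets. It measured 9.85, 9.54, 10.11 and 9.27 in ET3x1 and 8.39, 8.71, 8.26 and 8.07 in ET3x2 at 1383112_at, 2.52-fold higher in ET3x1 (adjusted p = 0.00442); the S pools at 9.12 to 9.62 were at the ET3x1 level. The second, 1385227_at, was lower by 0.61 on the log2 scale (adjusted p = 0.0145), a call lost without pool E (0.0536) or I (0.0511) and with all 12 pools in one fit (0.0539).
Zbtb20, a repressor of the BTB family, measured 11.11, 10.93, 11.21 and 11.11 against 10.05, 10.04, 10.07 and 10.16. Both groups were tight, with SDs of 0.12 and 0.06, and the mean was 2.01-fold higher in ET3x1 (adjusted p = 0.000146).
Zfp91 (−1.17, adjusted p = 0.00505) and Zbtb41 (−0.70, adjusted p = 0.00124) had ET3x2 means below the filter level of their array, so no fold is given for them. Zfp91 was called at 1 of 7 tested probe sets; the other six ran from −0.68 to 0.16, with −0.10 at the brightest. The general factor Sp1 was called at 1 of 4 probe sets (−0.88, adjusted p = 0.00932), and the other three lay between −0.13 and −0.01.

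Translation genes did not move as a block. Of 42 translation factors, 29 had a positive difference, where 60.6% of all genes did. By any probe set 2 (4.76%, beside 2.09% of all genes) were called lower, and by the brightest 1 was (2.38%, beside 1.09%). None was called higher, beside 0.196% of all genes by any probe set.
Eif5b, the GTPase that joins ribosomal subunits, measured 9.72, 9.57, 9.87 and 9.95 against 8.68, 8.40, 8.34 and 8.46 at 1395237_at, 2.48-fold higher in ET3x1 (−1.31 ± 0.10 SE, adjusted p = 0.000161). The S pools at 8.25 to 8.69 lay near the ET3x2 pools, and its other probe sets 1388947_at and 1396191_at differed by −0.01 and −0.22 without a call.
Eif3a, the largest scaffold of the initiation factor 3 complex, was 1.46-fold higher in ET3x1 (adjusted p = 0.0173), a call lost without pool G (0.0531) or K (0.0682), with the actin control as a covariate (0.0631) and without pools G and J (0.0525).
Among 19 aminoacyl-tRNA synthetases, 1 was called in each direction by any probe set (10.5% called, beside 2.29% of all genes). By the brightest probe set only the higher one was called. Eprs1, which charges the tRNAs of glutamate and proline, measured 10.27, 10.18, 10.56 and 9.84 against 8.77, 9.18, 8.14 and 8.82 at 1383455_at (2.79-fold higher in ET3x1, adjusted p = 0.00497), while its other probe sets differed by −0.04 and 0.04. Wars1, the tryptophan enzyme, measured 9.96, 9.72, 9.78 and 9.92 against 10.23, 10.33, 10.21 and 10.26 (0.41 ± 0.08 SE, adjusted p = 0.0294); the groups were apart, and the call was lost without pool E (0.0668), G (0.0949), I (0.0831), J (0.0541) or K (0.0964) and with the actin covariate (0.0892), and its second probe set differed by 0.17.
None of 41 cytosolic ribosomal protein genes was called, and 29 of them had a negative difference (median −0.07). With 2.29% of all genes called, an absence of calls in a list of this length says little.

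The genes that were higher in ET3x2 were few and changed by smaller amounts. Aldoa, the glycolytic aldolase, measured 13.43, 13.45, 13.28 and 13.47 in ET3x1 and 13.90, 13.85, 13.92 and 13.84 in ET3x2. Every ET3x2 pool was above every ET3x1 pool with an SD of 0.04, the mean was 1.39-fold higher (0.47 ± 0.07 SE, adjusted p = 0.00444), and the S pools at 13.62 to 13.71 fell between the groups. It was the single call among 14 glycolysis genes (7.14%, beside 2.29% of all genes called), of which 12 had a positive difference.
Sult2b1, a sulfotransferase that acts on cholesterol, measured 7.74, 7.73, 7.50 and 7.56 against 8.22, 7.99, 8.42 and 8.28 (0.60 ± 0.10 SE, adjusted p = 0.00899). Aldoa and Sult2b1 were the 2 among the 12 highest named genes whose calls held under every setting.
The largest rise was that of Ube2m, the enzyme that conjugates the ubiquitin-like protein NEDD8 to cullins. It measured 9.85, 9.92, 9.68 and 9.41 against 10.66, 10.47, 10.44 and 10.15, 1.64-fold higher in ET3x2 (0.71 ± 0.13 SE, adjusted p = 0.0173). The call was lost without pool E (0.0531), G (0.0531), I (0.0563) or K (0.0749), although no pool overlapped.
Bcat2, the mitochondrial aminotransferase of branched-chain amino acids, measured 9.06, 9.32, 8.96 and 8.85 against 9.65, 9.61, 9.52 and 9.54 (0.53 ± 0.10 SE, adjusted p = 0.0204). Its groups were apart, and the call was lost without pool E (0.0816), G (0.0632), I (0.0723) or K (0.0682), with the actin control as a covariate (0.0672) and without pools G and J (0.0677). Bckdha, a subunit of the next enzyme of that pathway, was called lower at 1380557_at (−0.27, adjusted p = 0.0385), a call lost without any 1 pool other than I (0.139 without K) and with the covariate (0.164), and differed by 0.34 and 0.08 at its other probe sets, which were not called.
The other 7 of the 12 were Slc16a6, a monocarboxylate carrier (0.60), Mettl26 (0.49), the nuclear transport factor Nutf2 (0.47), the microtubule-binding Camsap3 (0.44), the surface glycoprotein Cd99 (0.44), the clathrin adaptor subunit Ap1s1 (0.43) and the respiratory complex I subunit Ndufv3 (0.42), with the splicing gene Sf3b5 described above. Each of these lost its call without pool K, at adjusted p-values from 0.0749 for Slc16a6 to 0.18 for Ap1s1, and each lost it without at least 1 further pool. With the actin covariate, the calls of Ap1s1 (0.141), Cd99 (0.124), Mettl26 (0.119), Camsap3 (0.0924), Slc16a6 (0.055) and Ndufv3 (0.0547) were lost as well, and the second probe set of Slc16a6 differed by −0.20.

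Where a gene had several probe sets, they often disagreed. Of 257 genes with a called probe set (2.29% of genes tested; 235 lower and 22 higher), 187 had more than 1 tested; both signs occurred in 78 of these, 2 or more probe sets were called in 18, and every probe set was called in 3. The 280 uncalled probe sets of genes called lower were negative in 66.8% of cases with a median of −0.07, whereas 37.5% of all 14816 uncalled probe sets with 1 symbol were negative and their median was 0.04. Mgll is a case of opposite signs: beside the lower probe set, 1388644_at measured 12.10, 12.32, 11.68 and 11.96 in ET3x1 and 12.39, 12.36, 12.48 and 12.26 in ET3x2 (0.36, adjusted p = 0.162), and 1375247_at differed by −0.24. Slc5a3 differed by −0.81 at one probe set and by 0.08 at the other. Ubxn4 (−0.09 and 0.07 at the others), Entpd5 (0.02) and Ddx6 (0.17 and −0.13) were each called at 1 probe set only.

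**Figure D3:**
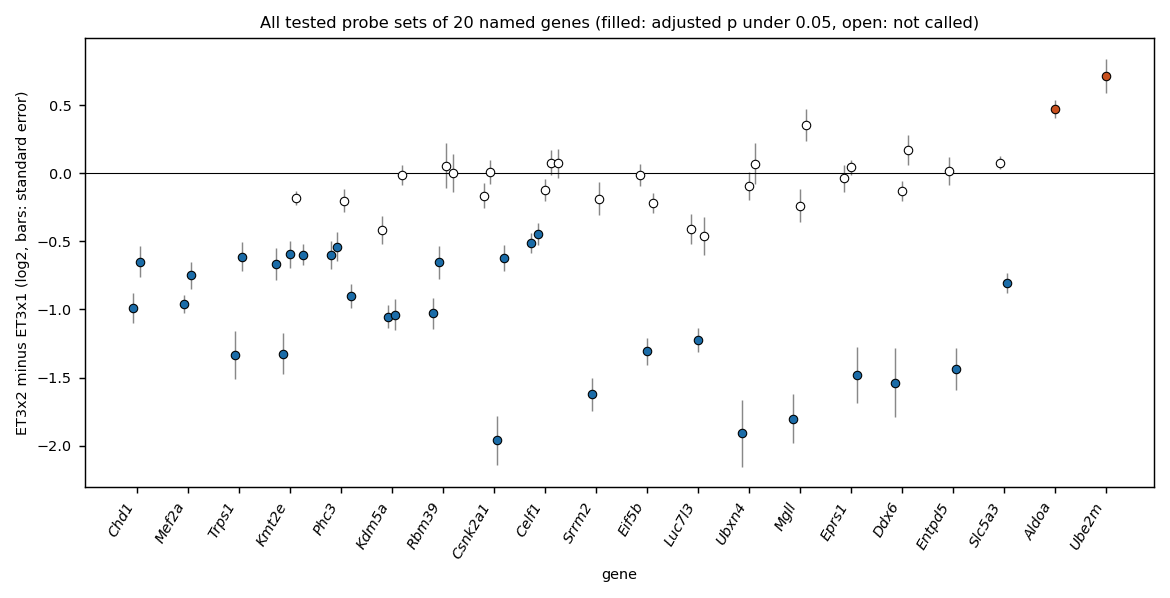
Difference ET3x2 minus ET3x1 (log2, points; bars are standard errors of the limma fit) at every tested probe set of 20 named genes, filled where called and open where not. Chd1, Mef2a and Trps1 are filled throughout, whereas Ubxn4, Mgll and Eprs1 each have 1 filled point at −1.48 or below and open points between −0.24 and 0.36.

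The genes with every probe set lower were Trps1, Chd1 and Mef2a; the latter pair was picked out after its values were seen. Mef2a, a MADS-box factor of muscle and other cells, measured 9.79, 9.66, 9.63 and 9.49 against 8.66, 8.69, 8.69 and 8.69 at 1392472_at, with an SD of 0.02 in ET3x2 (−0.96 ± 0.07 SE, adjusted p = 0.000142). At 1393290_at it read 10.08, 10.07, 9.96 and 9.77 against 9.35, 9.39, 9.15 and 8.99 (−0.75 ± 0.10 SE, adjusted p = 0.00442), so both probe sets separated the groups. Chd1, a chromatin remodeller of active genes, measured 9.82, 9.64, 9.53 and 9.43 against 8.55, 8.90, 8.44 and 8.59 at 1382009_at. At 1392830_at it read 8.36, 8.35, 8.05 and 8.25 against 7.63, 7.90, 7.55 and 7.32 (−0.65, adjusted p = 0.016), a call lost without pool E, I or K. RefSeq promoters (250 bases before to 50 after the annotated start, GRCr8 build) were found for Chd1 and Mef2a but not for Trps1. They are shown as a description, and a role of these sequences in the lower signals was not tested. Both strands were searched for TATAAA (the TATA box, in 7.28%), CCAAT (in 37.4%), GGGCGG (the core of the GC box, in 61.0%) and CACGTG (an E-box, in 9.42%), with the shares taken over the 9290 promoters found for tested genes; matches are in capitals.
Chd1: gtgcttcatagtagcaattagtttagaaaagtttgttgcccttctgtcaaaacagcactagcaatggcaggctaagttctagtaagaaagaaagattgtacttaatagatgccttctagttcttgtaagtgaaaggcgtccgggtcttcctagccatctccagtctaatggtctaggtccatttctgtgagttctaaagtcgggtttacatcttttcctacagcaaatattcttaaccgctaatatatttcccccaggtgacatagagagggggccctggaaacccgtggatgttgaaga
Mef2a: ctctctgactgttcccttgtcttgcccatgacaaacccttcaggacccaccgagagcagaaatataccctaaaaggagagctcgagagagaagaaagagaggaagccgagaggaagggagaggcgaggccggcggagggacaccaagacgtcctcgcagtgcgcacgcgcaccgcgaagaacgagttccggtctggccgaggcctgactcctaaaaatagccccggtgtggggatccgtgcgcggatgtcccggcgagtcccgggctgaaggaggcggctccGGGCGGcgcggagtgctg
The Chd1 promoter spans chr1:65336966-65337265 on the plus strand, has 42.3% G and C and holds none of the 4 motifs. The Mef2a promoter spans chr1:130392113-130392412 on the minus strand, has 63.0% G and C and holds 1 GGGCGG. The median promoter of tested genes had 60.7% G and C, so the 2 differ in base composition.

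Genes of salt handling and of the pressure-regulating hormones were largely uncalled, as were all tested genes, of which 2.29% had a called probe set. In the endothelin system, the endothelin-converting enzyme Ece1 measured 9.91, 10.09, 9.87 and 9.92 in ET3x1 and 9.98, 10.09, 10.02 and 10.10 in ET3x2, with overlapping groups (0.10, adjusted p = 0.525). Edn3, Ednra and Ednrb were not analysed here. Of 7 genes of the angiotensin system none was called; the hormone precursor Agt differed by 0.14 (adjusted p = 0.686), and the receptor Agtr1a by 0.20 and 0.04 at its probe sets.
The aldosterone receptor Nr3c2 measured 8.65, 8.81, 8.67 and 8.59 against 8.27, 8.36, 8.53 and 8.51. All ET3x2 pools were below ET3x1 (−0.26 ± 0.08 SE), but the difference did not pass the adjustment (adjusted p = 0.138).
The epithelial sodium channel subunit Scnn1b, which aldosterone regulates, read 9.22, 9.35, 9.16 and 9.16 against 9.49, 9.48, 9.45 and 9.37, higher in 4 of 4 ET3x2 pools (0.23, adjusted p = 0.161). Scnn1a and Scnn1g also had positive differences (0.11 to 0.20) and overlapping groups, and the aldosterone-induced kinase Sgk1 differed by −0.04.
The furosemide-sensitive cotransporter Slc12a1 of the thick limb measured 10.725, 10.994, 10.909 and 10.997 against 10.561, 10.784, 10.539 and 10.568 (−0.29, adjusted p = 0.141), and pool J overlapped. The thiazide-sensitive Slc12a3 differed by 0.26 the other way (adjusted p = 0.244). None of 12 genes of the mineralocorticoid response, 16 of distal salt transport, 18 of proximal transport and 9 of water and urea transport was called.
Add3, an adducin of the membrane skeleton, a family studied in rat hypertension, was the call in its list. At 1370260_at it measured 9.27, 9.12, 9.73 and 8.85 against 8.38, 8.70, 8.16 and 8.40 (1.78-fold higher in ET3x1, adjusted p = 0.0252); the call was lost without pool E (0.0991), I (0.0822) or K (0.117), with the actin control as a covariate (0.0605), and the second probe set differed by −0.04. Add1 and Add2 had positive, uncalled differences of 0.11 to 0.25.

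Genes by which medullary cells withstand hypertonicity held 2 calls, both lower, among 9 tested (22.2%, beside 2.09% of all genes). Slc5a3, the sodium-dependent carrier of myo-inositol, measured 10.55, 10.45, 10.45 and 10.36 in ET3x1 and 9.67, 9.72, 9.48 and 9.71 in ET3x2 at 1392349_at. The groups were apart with SDs of 0.08 and 0.11, the mean was 1.75-fold higher in ET3x1 (adjusted p = 0.000486), and the S pools at 10.47 to 10.77 lay with ET3x1. Nfat5, the transcription factor that induces such genes under hypertonicity, read 10.97, 10.80, 11.08 and 11.07 against 10.37, 10.38, 10.48 and 10.71 (−0.50, adjusted p = 0.0294) and lost its call without pool E (0.108), G (0.0987), H (0.0736), I (0.11), J (0.0512) or K (0.118) and with the actin covariate (0.102); its second probe set differed by −0.26.
Atp2b1, the plasma membrane calcium pump, was called at 2 of 4 probe sets, at −0.54 and −0.36, and all 4 were negative; both calls were lost without pool E (0.17 and 0.0697) or K (0.177 and 0.0692), the first also with the actin covariate (0.145) and the second with all 12 pools in one fit (0.0591).
Sc5d, an enzyme of late cholesterol synthesis, measured 8.51, 8.60, 8.64 and 8.49 against 8.22, 8.16, 8.13 and 8.17 at 1390777_at. That is 1.31-fold higher in ET3x1 (adjusted p = 0.00447), yet 16 of the 19 cholesterol genes had positive differences and the other probe sets of Sc5d read −0.01 and 0.23.
In the matrix and fibrosis list, 2 of 34 were called lower (5.88%, beside 2.09% of all genes). The growth factor Ccn2 measured 11.21, 11.34, 10.94 and 11.03 against 10.48, 10.73, 10.51 and 10.73 (−0.52, adjusted p = 0.0306) and lost its call without pool E (0.129), I (0.116) or K (0.14) and with all 12 pools in one fit (0.11). The collagen crosslinker Loxl2 (−0.75, adjusted p = 0.0429) lost it without pool E (0.149), F (0.0523), G (0.0576), I (0.0793), K (0.158) or L (0.104) and with the actin covariate (0.0764), and its second probe set differed by 0.17.
Of 17 clock genes, the nuclear receptors Rora (−0.91, adjusted p = 0.0346) and Nr1d2 (−0.49, adjusted p = 0.0464) were called lower (11.8% of the list, beside 2.09% of all genes), and both calls were lost without pool E (0.119 and 0.164), I (0.121 and 0.168) or K (0.134 and 0.177). Nr1d2 also lost it with all 12 pools in one fit (0.208) and with the actin covariate (0.0888), and the second probe sets differed by 0.06 for Rora and −0.23 for Nr1d2.
Traffic genes gave 3 lower calls by any probe set among 18 (16.7%, beside 2.09% of all genes), and 1 by the brightest (5.56%, beside 1.09%). Beside Wdfy1, the endosome tether Eea1 was lower by 1.21 on the log2 scale (adjusted p = 0.000938) with an ET3x2 mean of 6.57 below the filter level, and the small GTPase Rab14 (−0.94, adjusted p = 0.0306) lost its call without pool E (0.126), G (0.0531), I (0.0563), K (0.135) or L (0.0509) and with the actin covariate (0.0843). The other probe sets differed by −0.29 for Wdfy1, −0.17 for Eea1 and −0.28 and 0.03 for Rab14, none of them called.

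**Figure D4:**
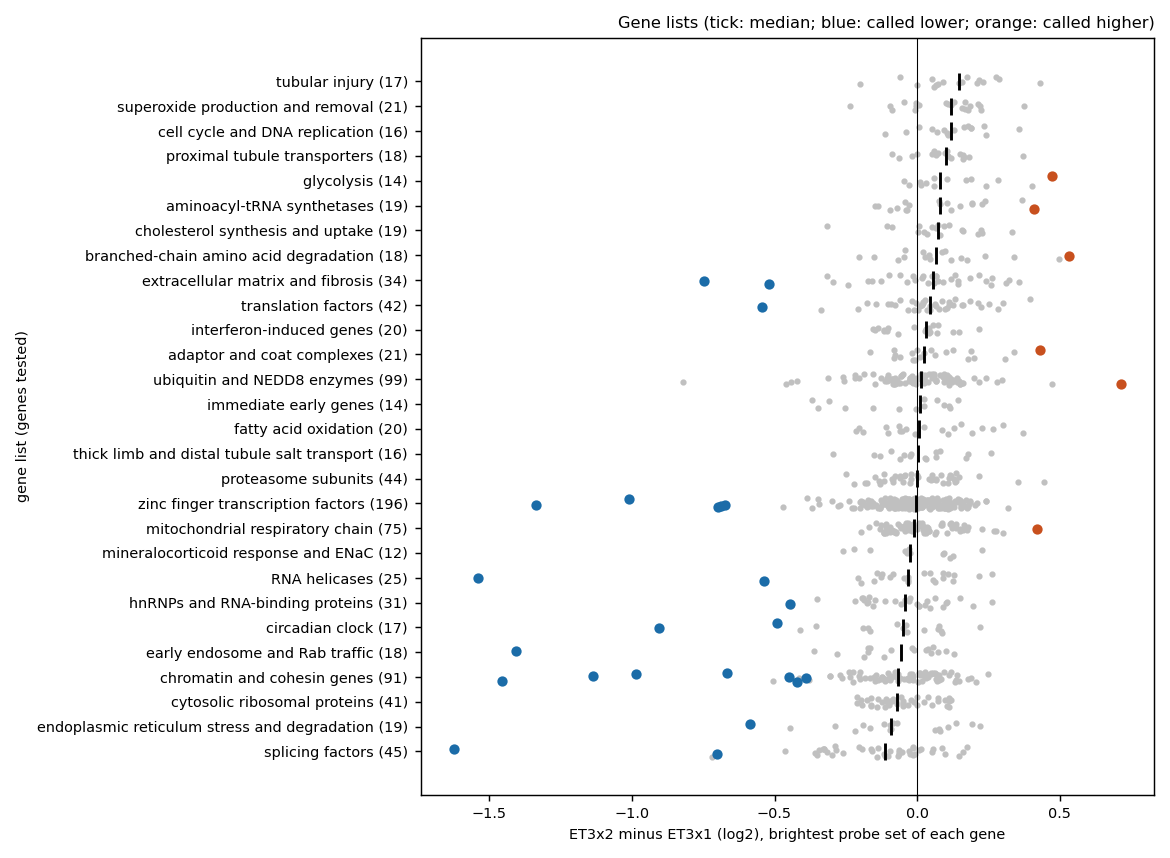
Difference ET3x2 minus ET3x1 (log2) at the brightest probe set of each gene, by list with 12 or more genes tested (number in brackets), with called genes in blue (lower) or orange (higher) and a tick at each median. Medians run from −0.11 for splicing factors to 0.15 for tubular injury genes, and the chromatin list has 7 blue points.

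No gene was called in the lists of tubular injury (17 tested, median 0.15), superoxide production and removal (21, median 0.12), cell cycle (16, median 0.12), fatty acid oxidation (20, median 0.01), proteasome subunits (44, median 0.00), interferon-induced genes (20, median 0.03) or immediate early genes (14, median 0.01). With 2.29% of all tested genes called, the absence of calls in lists this short says little. For tubular injury, Havcr1 (KIM-1) differed by 0.17 (adjusted p = 0.415) and the matricellular protein Spp1 by 0.15 (adjusted p = 0.466), with overlapping pools. Chemokine Ccl5 read −0.39 (adjusted p = 0.183). The plasma cell gene Jchain read −0.50 at 1383163_at (adjusted p = 0.304) and −0.147 at 1384208_at, both uncalled. Of 6 plasma and B cell markers, 3 differences were positive and 3 negative, with a median of 0.055.
Marker lists of the cells a kidney pool can hold gave no call either. The median was 0.07 for 5 proximal tubule markers, −0.09 for 3 thick limb markers, 0.18 for 4 principal cell markers and −0.23 for 4 intercalated cell markers. It was 0.00 for 5 podocyte markers, 0.01 for 9 endothelial, 0.13 for 6 smooth muscle, 0.00 for 11 macrophage, 0.07 for 7 T cell and 0.25 for 3 red cell markers. The 4 intercalated cell markers lay 0.01 to 0.20 above the 8-pool average in ET3x1 pools and between −0.17 and −0.01 in ET3x2 pools; the principal cell markers lay 0.07 to 0.11 above it in ET3x2 pools and from −0.21 to 0.12 in ET3x1 pools. The part of these small shifts in the called genes was not tested.

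On chromosome 3, which carries Edn3, 20 of 860 tested genes were called, all lower; that is 2.33%, beside 2.29% of all genes. Chromosomes 15 (3.91%), 9 (3.89%) and 13 (3.41%) had larger shares, and chromosomes 12 (1.54%) and 1 (1.57%) the smallest. By order along chromosome 3, 7 of 307 were called in the first of 3 equal parts, 3 of 202 in the middle and 10 of 346 in the last. Edn3 is the gene at place 1776 of 1863 protein-coding genes, and among 49 tested genes within 50 places of it none was called by limma, 8 (16.3%) had a probe set at an unadjusted p under 0.05, beside 19.1% of all tested genes, and the median difference was 0.03.
Beside Csnk2a1 and Rbm39, the leading gene was Rnd3, a small GTPase that loosens actin stress fibres, at 9.34, 9.13, 9.25 and 8.96 in ET3x1 and 7.77, 8.05, 7.75 and 7.89 in ET3x2 (2.48-fold higher in ET3x1, adjusted p = 0.000142). Its other probe sets differed by −0.21 and 0.09 and were not called. Esf1, a factor of ribosome assembly, measured 8.02, 7.98, 8.23 and 8.07 against 7.44, 7.25, 7.34 and 7.39 (−0.72, adjusted p = 0.000486), and its second called probe set read −0.56, a call lost without pool E (0.0686), H (0.0657), I (0.0704), J (0.0531) or K (0.0897) and with the actin covariate (0.0739). Traf6, an adaptor of innate immune signalling, measured 8.32, 7.88, 8.17 and 8.06 against 7.53, 7.45, 7.65 and 7.45 (−0.59, adjusted p = 0.00753), with 0.10 and −0.06 at its uncalled probe sets. Tmem87b (−0.68), Zc3h15 (−0.59) and Gapvd1 (−0.42) kept their calls under every setting, as did Rnd3, Traf6 and the leading probe set of Esf1. The 20 called genes ran from place 323 for Gapvd1 to 1861 for Pcmtd2, beyond Edn3, with Ddx27 at 1706. Some were close neighbours in this order, as Zeb2 (432), Kif5c (439) and Rnd3 (445) were, and Rbm39 (1557), Phf20 (1558) and Mtcl2 (1573). These were picked out after the order was seen, and whether called genes lie closer together than other tested genes was not tested.

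Genes with a called lower probe set were long. Their median span from start to end in RefSeq's GRCr8 annotation was 67.1 kb, against 22.8 kb for all tested genes and 9.9 kb for the 22 genes called higher. With genes split into 4 equal groups by span, 0.387%, 0.697%, 1.78% and 3.56% of the probe sets were called lower from the shortest to the longest group, and the median differences were 0.06, 0.05, 0.03 and 0.01. With the brightest probe set of each gene alone the shares were 0.25%, 0.501%, 1.07% and 2.54%, in the same order although each gene then counts once. The span is given as a description with no test; genes are not independent replicates.

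**Figure D5:**
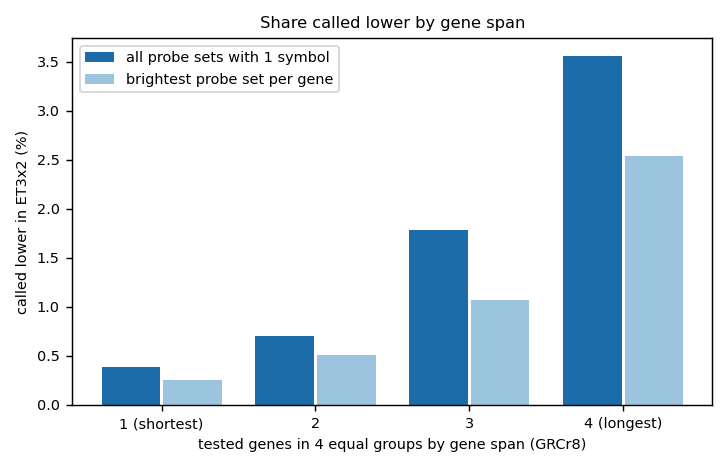
Share of probe sets called lower in ET3x2 (%) in 4 equal groups of the tested genes by gene span, over all probe sets with 1 symbol (dark) and the brightest probe set per gene (light). Dark bars rise from 0.387% in the shortest to 3.56% in the longest group, and light bars from 0.25% to 2.54%.

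A set of 100 probe sets is printed on both arrays, which were hybridised with RNA of the same pools and so repeat the measurement without new rats. Their differences had the same sign on both arrays in 78 cases, with a median gap of 0.06 and a largest gap of 0.22. The median size of these differences on RAE230A was itself only 0.08. Phc3, a Polycomb protein, was called on both: its shared probe set 1367538_at read −0.60 on RAE230A (adjusted p = 0.0131) and −0.54 on RAE230B (adjusted p = 0.0276), both lost without pool E or K. The RAE230B call was also lost without pool H or I and with the actin covariate. Probe set 1383334_at of Phc3 measured 9.77, 9.61, 9.51 and 9.61 against 8.55, 8.95, 8.75 and 8.64 (−0.90, adjusted p = 0.000819), with the groups apart. Its probe set 1378610_at differed by −0.20 and was not called.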

How the data were processed

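Kidney RNA pools of the congenic strains were hybridised to Affymetrix RAE230A and RAE230B arrays after oligo(dT) priming and biotin labelling, per the labels' protocols. The values analysed are the authors' deposited log2 signals per probe set; that the base is 2 is read from the values, which run from 5.007 to 15.207 (RAE230A) and from 4.15 to 13.487 (RAE230B), and the summary and normalisation methods are not given in the sources used here. No further normalisation was applied. Probe sets were named through the platform annotation given (1 symbol for 12783 of 15866 and 7564 of 15276), with symbols updated through RefSeq's GRCr8 gene table. Probe sets with a mean over the 8 pools at or above the 30th percentile of a chip were fitted with limma 3.58.1 (lmFit, eBayes with a trended prior, R 4.3.3), 4 ET3x2 against 4 ET3x1 pools, each chip on its own, with no covariate. Tests were two-sided, p-values were adjusted by Benjamini-Hochberg within a chip, and a call is an adjusted p under 0.05. The labels give no batch and no pairing of pools, and the pools hold different rats, so the p-values rest on the variation among pools that each average 3 kidneys. On simulated data with known changes, the fit called 72% of changes of 0.5, 98.41% of 1 and 100% of 2 log2 units among 11106 probe sets of RAE230A, and 85.71%, 98.55% and 100% among 10693 of RAE230B. False calls numbered 12 and 13, with 200 probe sets changed per chip. The simulated noise was independent between probe sets, whereas the real pools shared variation across them. The rates therefore need not hold for the real data. For gene lists the brightest tested probe set stood for a gene, RAE230A first, and a count over any probe set was added after seeing the data. The members and lists were chosen with earlier results of these data known. Named genes were the 15 lowest and 12 highest called, the 3 lowest and 2 highest called without 1 symbol, up to 4 called members of each list, up to 12 called on chromosome 3, and a fixed set of salt, hormone and injury genes; further called list members and genes with several called probe sets were named after their values were seen. Alternatives were a fit of all 12 pools, other filters, quantile normalisation, median centring, array weights, no trend, the actin 5′ minus 3′ control as a covariate, adjustment over both chips, pools G and J left out together, and each pool left out in turn. Figures were drawn with matplotlib 3.10.9.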

Additional observations from a re-analysis of the deposited data

Results flagged for a closer look

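In 5 of the 212 groups of 4 pools looked at, 1 pool stood far from the other three by Dixon's criterion at 95%, which chance alone gives in about 1 of 20 groups. Pool J of ET3x2 was high for Slc12a1 at 10.78, with the others at 10.54 to 10.57, and for Scnn1g (1370481_at) at 9.70, with the others at 9.56 to 9.57. Pool H of ET3x1 was low for Agtr1a (1384240_at) at 9.46, with the others at 9.58 to 9.60. Pool F of ET3x1 was high for Agt at 9.86, with the others at 9.10 to 9.23. Pool K of ET3x2 was low for Srrm2 (1390048_at) at 9.75, with the others at 10.20 to 10.21.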

How the results depend on the processing

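The excess of lower over higher calls held under every alternative, with shares of lower calls from 60.1% to 98.7%. Lower calls numbered 366 and ranged from 157 to 414 with 1 pool left out; the 157 calls without pool K held 155 of the 366. Higher calls numbered 25 and ranged from 2 to 265 with 1 pool left out. Array weights gave 854 lower and 549 higher calls, quantile normalisation gave 50 higher, and the actin control as a covariate gave 9 higher. All other settings stayed within 1.5 times of both counts, but similar counts can hold different probe sets. Without pools G and J, 277 of 392 lower and 9 of 22 higher calls were among the 366 and 25. With the actin covariate, 215 of 255 lower and 5 of 9 higher calls were. The cause of these changes was not tested. Of 71 named calls, 39 held under every alternative that tested them; 32 were lost without pool K, 30 without E, 25 without I, 22 without G, 13 without H, 11 without J, 8 without L and 5 without F. The covariate ended 21 of them, leaving out G and J 15, the fit of 12 pools 8, quantile normalisation 2, median centring 2 and no filter 1. No called difference changed sign. Uncalled values near 0 did with 1 pool left out, over ranges of −0.092 to 0.086 for Sgk1, −0.039 to 0.002 for Umod, −0.055 to 0.008 for Rtel1 1374921_at, −0.022 to 0.081 for Agtr1a 1384240_at, −0.071 to 0.029 for Eif5b 1388947_at and −0.101 to 0.013 for Add3 1399096_at. Agt read −0.028 with the covariate and −0.008 without G and J, and Eif5b 1388947_at and Rtel1 1391964_at read 0.01 and 0.0 with the covariate. The median of all genes moved between 0.014 and 0.042. Signal near background limits the 28 lower calls with a group mean below the filter level, whose sizes are not known. No paired analysis was possible because the pools of the 2 strains carry different letters and share no rat.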

Other observations

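Among called probe sets, 113 had no single gene symbol, and some of these had the largest differences. Probe set 1389986_at measured 12.76, 11.89, 13.20 and 11.76 in ET3x1 and 10.03, 10.33, 9.53 and 10.53 in ET3x2, 4.91-fold higher in ET3x1 (adjusted p = 0.00243). Probe set 1377774_at measured 10.48, 10.46, 10.36 and 10.30 against 8.95, 8.65, 8.71 and 8.44, 3.28-fold higher in ET3x1 with groups apart (adjusted p = 8.06e-05). Probe set 1376685_at was lower by 2.14 on the log2 scale, with an ET3x2 mean of 7.40 below the filter level. On RAE230B, probe sets without 1 symbol were 36.2% of the called and 46.0% of the tested ones, and on RAE230A 18.5% and 16.1%.

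The S strain, whose pools held 2 rats and did not enter the fit, had a mean between the 2 congenic means at most called probe sets. Of the 366 lower in ET3x2, 291 had an S mean within the interval from one congenic mean to the other, nearer to ET3x1 in 129 and nearer to ET3x2 in 162; it lay above the ET3x1 mean in 34 and below the ET3x2 mean in 41. Of the 25 higher in ET3x2, it lay between them in 23. The called probe sets were chosen for a difference between the 2 congenic means, and that choice by itself favours an S mean between them. No share over all tested probe sets is given for comparison. These positions are therefore a description with no test, and they do not show that S is intermediate between the congenic strains.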
